A study of Mus musculus with 9 samples.

Results

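The AP-1 genes described here are 9 members of the bZIP transcription factor family: Fos, Fosb, Fosl2, Jun, Junb, Jund, Atf3, Maff and Batf. They were measured by RNA sequencing in 9 libraries of macrophages gated on F4/80 and CD11b, both positive, out of the non-parenchymal fraction of mouse liver. All mice were male C57BL/6 animals sampled 24 h after a single intraperitoneal dose of carbon tetrachloride (CCl4), a toxin that injures hepatocytes, labelled as 0.6 mg/kg, and no uninjured group was analysed here. The control group is MAGL fl/fl (4 libraries, S1, S3, S4 and S5, all from 11-week-old mice). The other group is MAGL Mye-/- (5 libraries), in which S8 and S12 came from 11-week-old mice and S9, S10 and S11 from 10-week-old mice. MAGL is monoacylglycerol lipase, encoded by Mgll, and the label Mye-/- marks a deletion in myeloid cells whose Cre driver is not given in the sources used here. The labels give separate sample names and no batch, so p-values measure the spread between these samples and assume that each came from its own mouse.

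The table holds 59445 features, of which 6 of the 9 members were found by their symbol (Fos, Fosb, Fosl2, Atf3, Maff and Batf). The rows of Jun, Junb and Jund carry no symbol, and each was taken as the unnamed feature that overlaps the GENCODE M21 gene most, with a Jaccard overlap (shared length over joint length) of 0.608 for Jun, 0.708 for Junb and 0.994 for Jund. The 9 genes were selected on measured values, since they were proposed after the genotype contrast of these libraries was known. Their genotype differences are therefore a description and support nothing. All 9 passed the filter on low values (at least 10 in at least 4 libraries).

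AP-1 is a dimer of 2 bZIP proteins that binds DNA at the 7-base element TGACTCA or at the related 8-base cAMP response element TGACGTCA. Fos proteins pair with Jun proteins, Jun proteins also pair among themselves, Atf3 pairs with Jun proteins and is induced by many stresses, and the small proteins Maff and Batf lack a classical transactivation domain. In macrophages Fos, Jun, Atf3 and Maff belong to the immediate-early response, whose transcripts rise within minutes of a stimulus (tissue dissociation is one) and decay fast through AU-rich elements in their 3′ untranslated regions.

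The promoters of the 4 members below are shown because they hold the motif matches that are counted for all members after them. Each is the 250 bases before the RefSeq start (GRCm38.p6), printed 5′ to 3′ on the gene's strand, with capitals for matches to TGACG (the core of the cAMP response element, or its complement CGTCA), TGACATCA (a variant known from Jun) or TATAAA. Fos lies on the plus strand at chr12:85473640-85473889, and Fosb, Jun and Atf3 lie on the minus strand at chr7:19310046-19310295, chr4:95052223-95052472 and chr1:191183334-191183583.
Fos: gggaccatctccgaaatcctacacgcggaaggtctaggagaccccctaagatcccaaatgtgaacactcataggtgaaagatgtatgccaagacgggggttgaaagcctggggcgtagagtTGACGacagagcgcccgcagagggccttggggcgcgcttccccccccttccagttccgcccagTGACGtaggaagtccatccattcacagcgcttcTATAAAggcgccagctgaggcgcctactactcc
Fosb: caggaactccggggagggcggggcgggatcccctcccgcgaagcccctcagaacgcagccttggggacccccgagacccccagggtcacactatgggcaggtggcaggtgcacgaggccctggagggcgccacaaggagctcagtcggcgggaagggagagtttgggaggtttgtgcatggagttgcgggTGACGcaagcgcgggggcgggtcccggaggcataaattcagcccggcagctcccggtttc
Jun: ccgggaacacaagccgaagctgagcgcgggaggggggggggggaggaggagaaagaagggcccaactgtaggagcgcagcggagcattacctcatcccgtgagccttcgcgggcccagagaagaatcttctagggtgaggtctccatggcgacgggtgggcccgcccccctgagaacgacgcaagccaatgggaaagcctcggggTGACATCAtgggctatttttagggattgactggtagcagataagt
Atf3: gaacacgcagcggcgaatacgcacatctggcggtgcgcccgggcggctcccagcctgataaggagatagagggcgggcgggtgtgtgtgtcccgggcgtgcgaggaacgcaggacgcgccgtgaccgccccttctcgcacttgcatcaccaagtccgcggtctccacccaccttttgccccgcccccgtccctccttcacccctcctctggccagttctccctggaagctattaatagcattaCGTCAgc

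Windows of 300 bases (250 before and 50 after the start) were searched on both strands for all 32851 RefSeq starts in the table, 11 of which belong to the 9 members because Maff has 3. TGACG was present in 7 of the 11 member windows, those of 6 members (Fos, Fosb, Junb, Atf3, Batf and Maff, the last in 2 of its 3), against 20.8% of all windows. In Fos it began at -129 and at -66, in Fosb at -60, in Junb at -106 and in Atf3 at -7, counted from the start. The full element TGACGTCA, which contains TGACG, was present only in 1 Maff window among the members, against 1.79% of all windows. TGACATCA was present in Jun at -45 and in 1 Maff window at -45, against 3.62% of all windows. The AP-1 element TGACTCA was in 0 of the 11 windows and in 5.20% of all windows. TATAAA was present in Fos at -33 and in Junb at position 1, on the annotated start itself, against 13.6% of all windows. The CArG box, the site of serum response factor, was in none of the 11 windows and in 1.63% of all. Bases more than 250 before the start were not searched, so sites farther upstream would be missed. Nor do all RefSeq starts adjoin the measured feature. The Jund start is at 70697739, while its feature begins at 70698958. The Atf3 start is at 191183333, while its minus-strand feature reaches upstream to 191218039, where no window was searched. A match is a run of letters and was not tested as a binding site. In the 3′ untranslated regions of GENCODE M21, 7 of 9 members (all but Junb and Batf) held TATTTAT, an AU-rich element, against 27.6% of 21022 genes, and the Fos region of 815 bases held ATTTA 4 times.

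The Fos family held the most abundant feature of the 9. Fos, at chr12:85473889-85477273, encodes a protein that binds DNA as a stable heterodimer with Jun and cannot do so as a homodimer. Its normalized read values were 183421, 147204, 137345 and 149411 in fl/fl libraries S1, S3, S4 and S5, and 173581, 159016, 196155, 196235 and 179074 in Mye-/- libraries S8 to S12. The groups overlap, because S1 lies above 3 of the 5 Mye-/- libraries. The log2 difference, Mye-/- minus fl/fl on log2(value + 1), was 0.23 ± 0.17 (SE from limma, used for every difference below).

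Fosb, at chr7:19302696-19310045 on the minus strand, encodes a Fos paralog that is also spliced to a truncated form, which gene-level values do not separate. Fosb values were 23993.6, 17732.7, 15131.9 and 23664.5 in fl/fl and 33014.4, 33444.7, 37898.6, 33388.7 and 23203.2 in Mye-/-. Libraries S8 to S11 lie above every fl/fl library, and S12 lies below S1 and S5. The difference was 0.69 ± 0.17, with means of 20131 ± 4403 (SD, n = 4) and 32190 ± 5409 (SD, n = 5).

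Fosl2, at chr5:32135849-32157831, encodes Fra-2, a Fos protein without the strong transactivation domain of Fos. Fosl2 values were 81163.3, 45947.3, 55194.1 and 95395.2 in fl/fl and 119754, 155677, 92035.8, 100992 and 83539.9 in Mye-/-. S9 is the highest of the 9 and S3 the lowest, and 3 Mye-/- libraries (S8, S9 and S11) lie above all fl/fl. The difference was 0.69 ± 0.22, and the fl/fl SD of 22847 is large beside the mean of 69425 (n = 4).

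**Figure D1:**
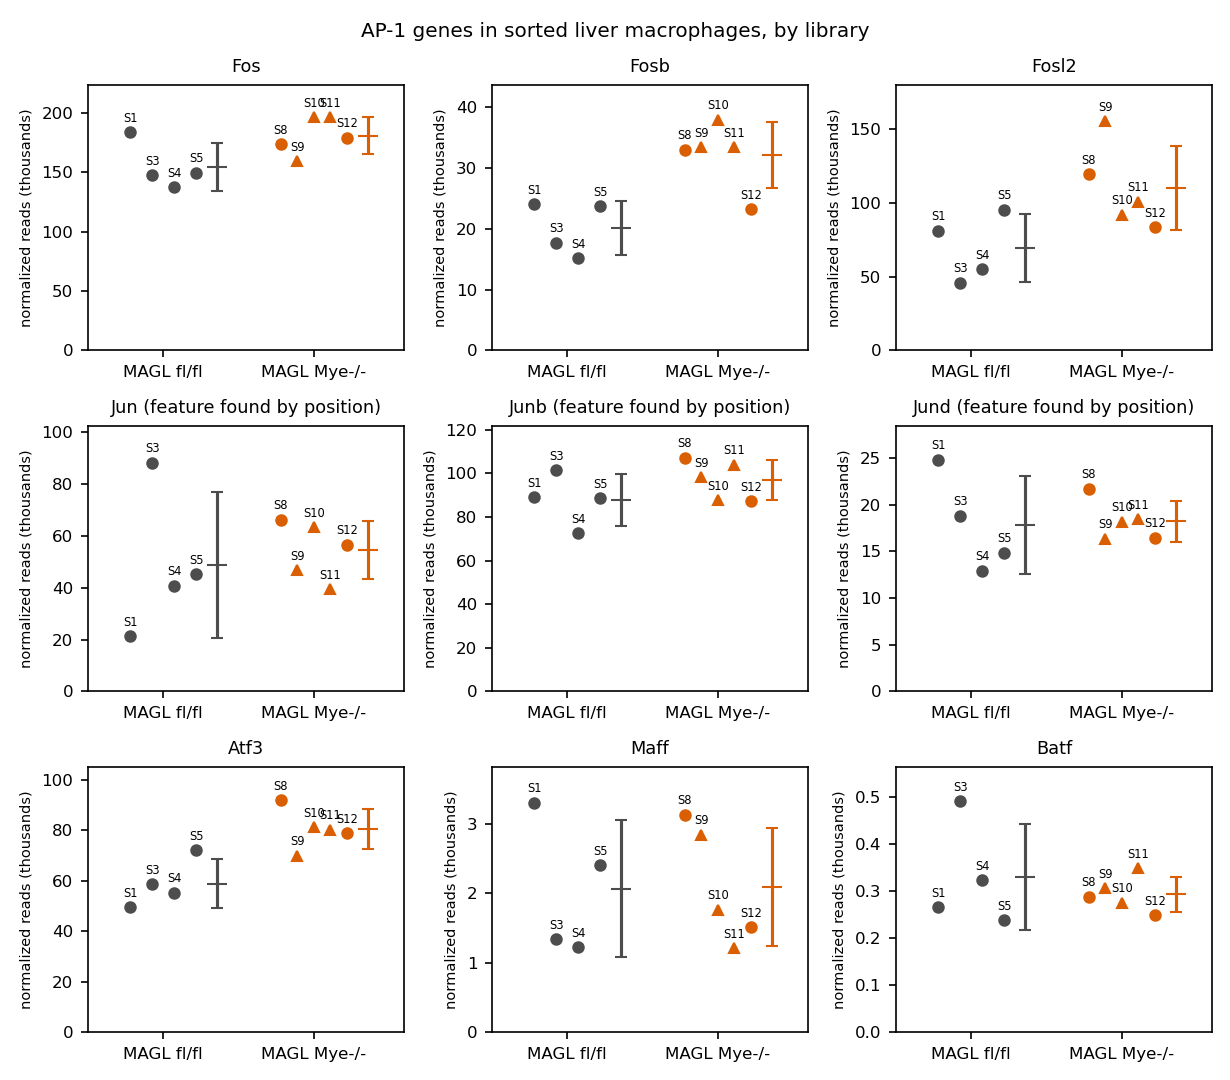
Normalized read values of the 9 AP-1 features in each library (vertical axis, linear, from 0, 1 panel per gene), with fl/fl and Mye-/- side by side, circles for 11-week-old and triangles for 10-week-old mice, and a bar for the mean ± SD. Fosb, Fosl2 and Atf3 have most Mye-/- points above the fl/fl points, Jun has its widest spread in fl/fl, and in all 9 panels the groups overlap.

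The Jun family showed smaller differences than Fosb and Fosl2. Jun, at chr4:95050234-95052171 in the table and 95049034 to 95052222 in GENCODE, is a single-exon gene whose deposited interval leaves out the end of the gene model with the 3′ part of the transcript. Jun values were 21344, 88264.9, 40723 and 45350.6 in fl/fl and 66305.8, 46764, 63326, 39447.5 and 56670.9 in Mye-/-. S1 and S3 are the lowest and the highest of all 9, so the fl/fl range is 4.14-fold and the Mye-/- range 1.68-fold. The difference was 0.31 ± 0.28 and became -0.0296 without S1. S1 also has the lowest and S3 the highest share of mitochondrial reads (3.49% and 9.45%), and without both libraries the Jun difference was 0.32.

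Junb, a Jun paralog that often damps Jun activity, has a feature at chr8:84972736-84978719 that runs 2099 bases into the neighbour Prdx2, whose own feature reads 8427 to 11812. Junb values were 89105, 101303, 72428.9 and 88697.4 in fl/fl and 107113, 98167.5, 87666.5, 103899 and 87206.6 in Mye-/-, with a difference of 0.14 ± 0.15. Jund, the constitutive Jun protein, at chr8:70698958-70700615, read 24835, 18852.7, 12938.3 and 14844.2 in fl/fl and 21740.7, 16357.6, 18179.1, 18480.9 and 16455 in Mye-/-, with a difference of 0.07 ± 0.17. The fl/fl range encloses 3 of the 5 Mye-/- values of Junb and all 5 of Jund, and Jund gave a difference of -0.0729 without S4 and of -0.00682 without S5.

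Atf3, at chr1:191170296-191218039 on the minus strand, encodes the stress-induced factor that represses many inflammatory genes of macrophages. Atf3 values were 49515.7, 58631.9, 55275.3 and 72147.9 in fl/fl and 91827.1, 70002.6, 81276.2, 80221.6 and 78876.6 in Mye-/-. S9 is the only Mye-/- library below an fl/fl library (S5), so the groups overlap by that library. The difference was 0.46 ± 0.15, with means of 58893 ± 9605 (SD, n = 4) and 80441 ± 7775 (SD, n = 5).

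The small factors were the lowest of the 9. Maff, at chr15:79346619-79359076, encodes a small Maf protein that pairs with CNC-bZIP factors. Maff values were 3305.3, 1344.4, 1222.95 and 2409.76 in fl/fl and 3130.17, 2843.97, 1765.01, 1210.27 and 1516.02 in Mye-/-, and the difference of 0.04 ± 0.30 changed sign without S3 (-0.12), S4 (-0.17), S8 (-0.13) or S9 (-0.0923). Batf, at chr12:85686677-85709087, encodes a Jun partner best known from lymphocytes and dendritic cells. Batf values were 265.77, 490.719, 323.85 and 238.956 in fl/fl and 288.158, 306.088, 275.518, 349.301 and 249.396 in Mye-/-, with a difference of -0.12 ± 0.38 that became 0.0908 without S3. All 5 Mye-/- values of Batf and 4 of the 5 of Maff lie inside the fl/fl range.

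**Figure D2:**
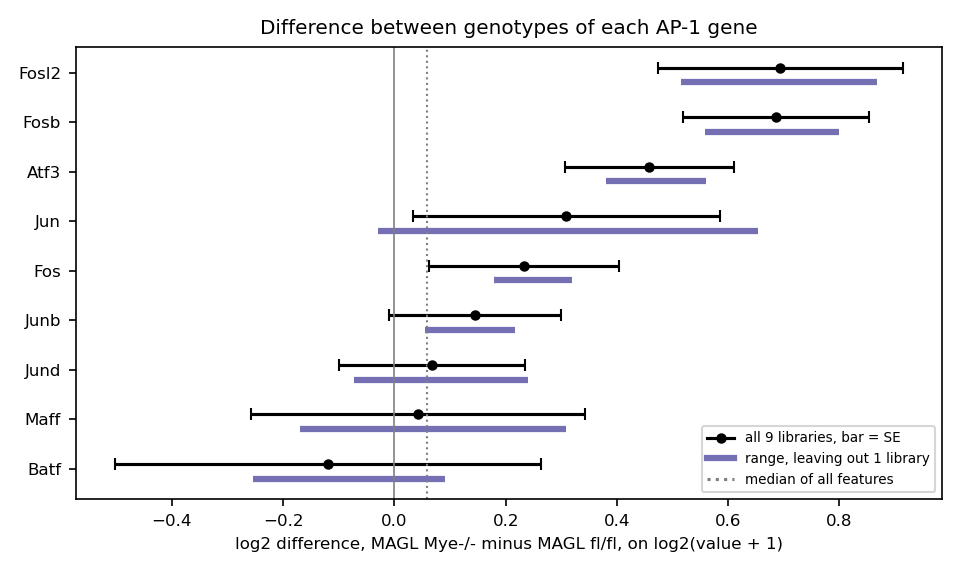
Log2 difference (Mye-/- minus fl/fl) of each AP-1 feature (black, bar for the SE), the range when 1 library is left out (purple), and the median of all 15288 features tested (dotted line). Fosb and Fosl2 (0.69) and Atf3 (0.46) lie farthest above the median of 0.06, and Batf (-0.12) is the only member below 0.

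With limma, 0 of the 9 members passed an adjusted p of 0.05 as higher, against 0.0196% of the 15288 features (3 features). edgeR's quasi-likelihood test on the whole reads recovered from the table also called 0 of the 9, against 0.0131% of the features (2). DESeq2 on the same reads called 2 members, Fosb and Atf3, against 0.621% of the 14656 features with an adjusted p (91). At an unadjusted p under 0.05, limma counted 3 members as higher (Fosb, Fosl2 and Atf3) against 6.38% of features, and no member as lower. On the normalized values, no member had every Mye-/- library above every fl/fl library, against 1.70% of features. The members were chosen with this contrast known, so these counts are read no further. The median log2 difference was 0.23 over the 9 members, 8 of them above 0, and 0.06 over all features, 54.6% of them above 0. Mice of 10 and 11 weeks within Mye-/- had mean Fosb values of 34911 and 28109 and mean Atf3 values of 77167 and 85352, the younger mice being higher in Fosb and lower in Atf3. With age as a covariate, which rests on the 11-week-old mice alone for the genotype difference, the values were 0.49 for Fosb, 0.59 for Fosl2 and 0.54 for Atf3.

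As shares of all reads, the 9 features together took 1.23%, 1.16%, 1.04% and 1.28% in fl/fl and 1.54%, 1.56%, 1.59%, 1.51% and 1.44% in Mye-/-. The groups do not overlap on this sum (1.18% ± 0.10 against 1.53% ± 0.059), and it is a sum over genes chosen on this contrast. Fos, Fosb and Fosl2 together took 0.512% to 0.745% in fl/fl and 0.779% to 0.932% in Mye-/-. Jun, Junb and Jund together took 0.337% to 0.506% and 0.424% to 0.487%, with overlap. Taken singly, the shares of Fosb did not overlap (at most 0.0619% in fl/fl, at least 0.0632% in Mye-/-). Those of Atf3 did not either (at most 0.1871%, at least 0.1874%), while the normalized values of both genes overlap. The shares of the other members overlap, and overlap over all features was not counted on this scale. The ratio of Fos-family to Jun-family reads ran from 1.01 to 2.13 in fl/fl and from 1.67 to 2.16 in Mye-/-. In bulk samples fewer cells of a type and less RNA per cell cannot be told apart.

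**Figure D3:**
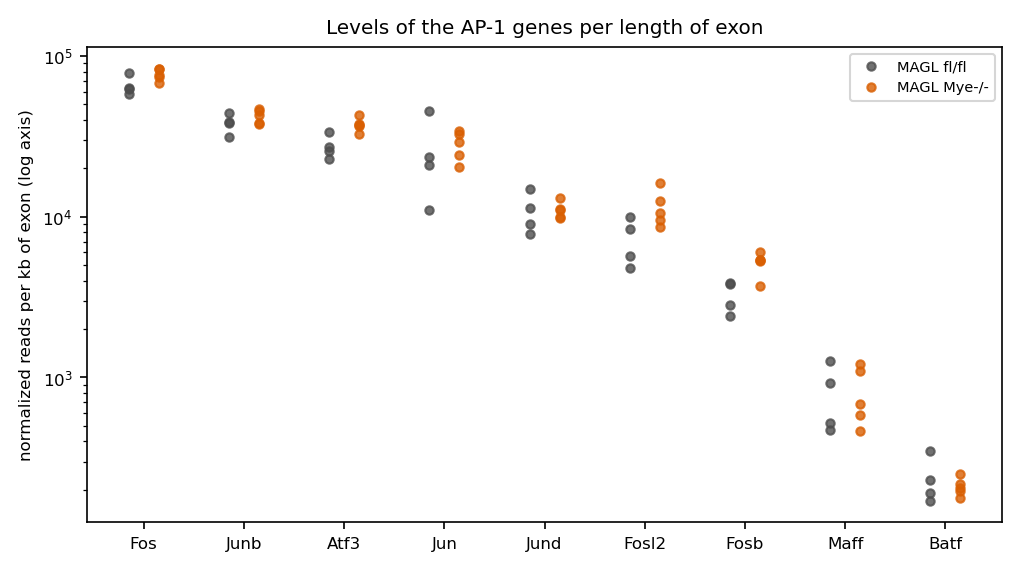
Normalized reads per kilobase of exon for the 9 AP-1 features (log axis), 1 point per library, coloured by genotype, with genes ordered by their fl/fl mean. Fos is the highest (mean of 65623 in fl/fl) and Batf the lowest (236).

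Levels between genes are compared per kilobase of exon. In fl/fl the mean level was 65623 for Fos, 38194 for Junb, 27341 for Atf3, 25243 for Jun, 10777 for Jund, 7216 for Fosl2, 3228 for Fosb, 798 for Maff and 236 for Batf. In all 9 libraries Fos lay above Junb, Junb above Atf3, Fosl2 above Fosb, Fosb above Maff and Maff above Batf. Atf3 lay above Jun and Jun above Jund in 8 of 9 libraries, and Jund above Fosl2 in 7, so these neighbours are not separated beyond their spread. In Mye-/- the mean of Fosl2 (11475) lies above that of Jund (11003), but this rests on S9 (16181 for Fosl2 and 9866 for Jund). In S8, S10, S11 and S12 Jund lies above Fosl2, so the means show no change of order between genotypes. By mean normalized value over all libraries Fos ranked 14 among the features, Junb 31, Fosl2 32, Atf3 50 and Jun 76, and Batf ranked 8326.

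A set of 3 unnamed features of 2501 bases each cover the RefSeq start of a member and lie within or across its gene. One covers the Fos start with 491 bases before it (chr12:85473399-85475899), one the Fosl2 start with 440 (chr5:32136032-32138532) and one the Atf3 start with 499 (chr1:191181332-191183832). The Fos feature read 525, 313, 497 and 639 in fl/fl and 823, 569, 695, 825 and 583 in Mye-/-, the groups overlap, and its difference was 0.53 ± 0.29. The Fosl2 start feature had means of 876 in fl/fl and 646 in Mye-/- (-0.23 ± 0.38). Its fl/fl mean is raised by S3 (1913), and its medians of 570 and 749 run the other way. The Atf3 start feature had means of 101 and 95.2 (0.25 ± 0.89), and the groups overlap for both features. The values of all 3 are a small fraction of those of their genes, and the strand of these features is not given, so their reads and those of the genes cannot be told apart. Fos, Jdp2 and Batf lie within 235199 bases of chromosome 12. Jdp2, a bZIP repressor between them, read 539 ± 252 (SD, n = 4) and 513 ± 161 (SD, n = 5).

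Among libraries of the same genotype the members did not move as 1 group. Log2 values were centred on the genotype mean, which takes out the contrast the members were chosen on, and the 36 pairs were correlated over the 9 libraries as a description. Of the pairs, 22 had a positive and 14 a negative Pearson r, with a median of 0.13. Fosl2 and Maff went together most (r = 0.80), followed by Fos and Jund (r = 0.69), Fosb and Fosl2 (r = 0.65) and Fosb and Maff (r = 0.61). Jun went against Fosl2 (r = -0.51) and Fos (r = -0.50), and Fosl2 against Batf (r = -0.54). In fl/fl and Mye-/- taken apart, r was 0.84 and 0.75 for Fosl2 and Maff but 0.91 and 0.21 for Fos and Jund. Values were 0.85 and 0.40 for Fosb and Fosl2, and 0.95 and 0.25 for Fosb and Maff. They were -0.64 and -0.23 for Jun and Fosl2, and -0.69 and -0.04 for Jun and Fos. Fosl2 and Batf changed sign, from -0.94 in fl/fl to 0.44 in Mye-/-. The deviation of Jun was -1.02 in S1 and 1.03 in S3 on the log2 scale. The libraries share depth, sort and sequencing, and S1 and S3 weigh on each pair with Jun.

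**Figure D4:**
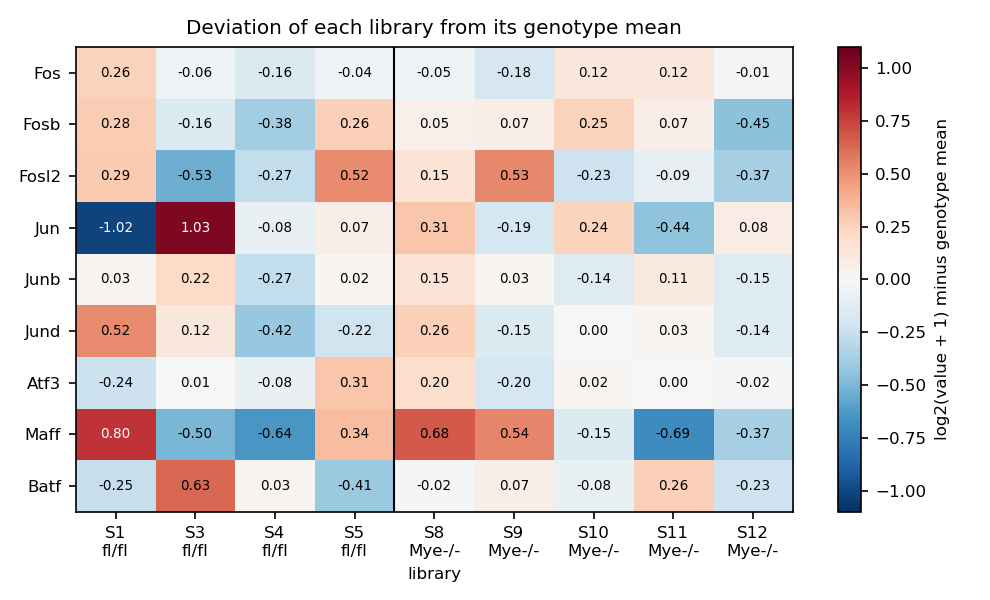
Deviation of the 9 AP-1 features from their genotype mean in each library (colour, log2 scale). Jun is lowest in S1 (-1.02) and highest in S3 (1.03), where Fosl2 and Maff run the other way.

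The 10 genes whose centred values were most like the mean centred profile of the 6 members with a symbol were taken from 6758 genes outside the family that carry a symbol and average 500 or more. Mxd1, a Max partner that represses transcription, came first (Pearson r = 0.98, Spearman rho = 0.83). Zc3h12a, an RNase that cuts inflammatory transcripts, followed (r = 0.96, rho = 0.93). The others were Taf11, Rnf149, 5430427O19Rik, Rassf1, 3110043O21Rik, Gm6377, Odc1 and Nr4a3, with r from 0.91 to 0.95. These are the highest of many values over 9 libraries, and they carry no p. The profile is an unweighted mean of log2 values, without Jun, Junb and Jund. Maff deviated most of the 6 members in it (0.80 in S1 and -0.69 in S11) and so weighs on it most. Fos deviated by 0.26 and 0.12 in the same libraries, so a gene like the profile need not follow each member. Zc3h12a read 1693, 1190, 953 and 1460 in fl/fl and 2762, 2591, 2020, 2318 and 1712 in Mye-/-. Every Mye-/- library lies above every fl/fl library for Zc3h12a (0.80 ± 0.20, limma adjusted p = 0.218). Odc1, which makes putrescine, likewise read 3501 to 4479 in fl/fl and 5139 to 7684 in Mye-/-, without overlap (0.67 ± 0.15, limma adjusted p = 0.186). Rnf149 read 4963 to 5799 and 5933 to 7545, also without overlap (0.36 ± 0.13, limma adjusted p = 0.332). The groups overlap for the rest of the 10. Such a lack of overlap was seen in 1.70% of all features.

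Other genes of the AP-1 pathway were counted by list over the same fit. The lists were chosen with earlier results of these data known, so their counts are a description and support nothing. For comparison, 54.6% of all features were higher in Mye-/-, limma gave an unadjusted p under 0.05 to 6.38% as higher and 4.13% as lower, DESeq2 called 0.621% as higher, and the groups did not overlap in 1.70% as higher and 1.6% as lower. Among kinases and serum-response factors upstream of AP-1, 44 of 48 listed names were tested. The untested Mrtfa and Mrtfb are other names of the tested Mkl1 and Mkl2. Of the 44, 30 were higher and 14 lower, with a median of 0.15, and limma, edgeR and DESeq2 called none in either direction. Map2k7, a kinase that activates JNK, read 758 to 980 in fl/fl and 1295 to 1790 in Mye-/- without overlap (0.71 ± 0.19, limma adjusted p = 0.218). Mapk7 had means of 2357 and 3222 and Map3k8, the kinase Tpl2, 2474 and 3455. At an unadjusted p under 0.05, limma counted 5 of the 44 as higher (6.38% of all features) and 0 as lower (4.13%), and Map2k7 was the 1 gene of the 44 without overlap (1.70%).

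Of the other bZIP factors, 35 of 39 listed were tested, 21 higher and 14 lower, with a median of 0.05, and none was called by limma, edgeR or DESeq2, while 5 reached an unadjusted p under 0.05, all higher (6.38% of all features). Mafk, a small Maf like Maff, had means of 4523 ± 1205 (SD, n = 4) and 6407 ± 1012 (SD, n = 5). Atf7, a relative of Atf2, had means of 552 and 884. For AP-1 turnover and repression, 30 of 32 listed names were tested, and the untested Auf1 and Cop1 are other names of the tested Hnrnpd and Rfwd2. Of the 30, 19 were higher and 11 lower, with a median of 0.14 and no call by limma, edgeR or DESeq2. In limma 3 reached an unadjusted p under 0.05, all higher (6.38% of all features). Zfp36l1, which binds AU-rich elements, had means of 5900 and 8085, and Trib1, a pseudokinase, of 21277 and 25512.

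Of textbook AP-1 targets, 36 of 40 were tested, 20 higher and 16 lower, with a median of 0.05. limma and edgeR called none, and 5 reached an unadjusted p under 0.05 in limma, all higher (6.38% of all features). Il1b, the inflammatory cytokine, read 24826.9, 20361.8, 11954.5 and 20381.5 in fl/fl and 35366.3, 30270.6, 33821.8, 40229.4 and 21484.8 in Mye-/-. S12 lies below S1, so the groups overlap (0.75 ± 0.20, limma adjusted p = 0.218), and Il1b was the 1 target that DESeq2 called (0.621% of all features as higher). Ptgs2, the inducible cyclooxygenase, had means of 13887 and 18553. Of genes linked to Atf3 in the integrated stress response, 23 of 26 were tested, 14 higher and 9 lower, with a median of 0.05. limma, edgeR and DESeq2 called none, and 1 in each direction reached an unadjusted p under 0.05 (6.38% and 4.13% of all features). Eif2ak2, the kinase PKR, read 284 to 561 in fl/fl and 596 to 1871 in Mye-/-, and Psat1, an enzyme of serine synthesis, read 634 to 1183 in fl/fl and 286 to 539 in Mye-/-. The groups do not overlap for either gene, 1 of 23 in each direction, against 1.70% of all features as higher and 1.6% as lower.

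The list of other immediate-early genes had the most members on 1 side. Like the other lists it was chosen with earlier results of these data known, so its counts are read no further. It holds 38 names, of which Cyr61 and Ccn1 mean the same gene and were not tested. Of the 36 tested, 32 were higher and 4 lower, against 54.6% of all features higher. Their median was 0.33 against 0.06 over all features. limma and edgeR called none, DESeq2 called 2 (Nr4a2 and Klf4) against 0.621% of features, and 12 reached an unadjusted p under 0.05 in limma, all higher, against 6.38% of features. Nr4a2, an orphan nuclear receptor, read 5197 to 9463 in fl/fl and 9872 to 18611 in Mye-/- (1.15 ± 0.20, limma adjusted p = 0.0506). Klf4, a zinc-finger factor, read 11834 to 16604 and 20092 to 25488 (0.76 ± 0.14, limma adjusted p = 0.0608). For both genes every Mye-/- library lies above every fl/fl library, which holds for no other of the 36 and for 1.70% of all features. Egr1 and Ier2, named after their values were seen, went against the 32 higher genes. Their means were lower in Mye-/- (3733 and 3021 for Egr1, 26927 and 22074 for Ier2), with overlapping groups. The part of tissue dissociation in the values of this list was not tested. The lists share genes with each other, among them Atf4, Zfp36 and Btg2.

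**Figure D5:**
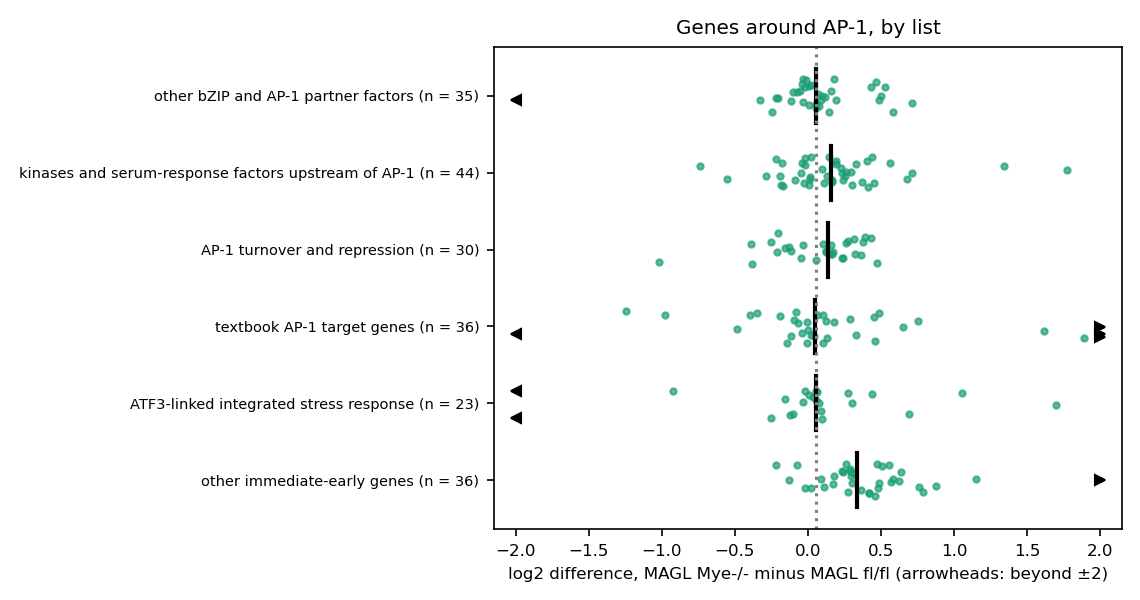
Log2 difference (Mye-/- minus fl/fl) of each tested gene in the 6 lists, 1 row per list, with the list median as a black bar, the median of all features as a dotted line and arrowheads for genes beyond the axis. The list of other immediate-early genes has the highest median (0.33), and each of the other 5 lists has a median from 0.05 to 0.15.

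Total reads ran from 33383559 to 46489349 per library, and mitochondrial shares overlapped between the groups. Mgll, the targeted gene, read 0 to 107 in fl/fl and 0 to 46.6 in Mye-/-, so at this level it does not check the labels. Summed macrophage markers ran from 327726 to 528816 in fl/fl and from 263076 to 329059 in Mye-/-, mostly through Lyz2, which read 221530 to 422118 and 143570 to 204782 without overlap. The other 6 macrophage markers had higher means in Mye-/- than in fl/fl, among them Adgre1 (5433 and 6443 in fl/fl and Mye-/-), Csf1r (47102 and 53808) and Itgam (48739 and 49711), and the groups overlap for these 3. Summed Kupffer cell markers ran from 11922 to 22698 and from 22685 to 33504, mostly through Id3, and monocyte-derived markers from 388132 to 615629 and from 422720 to 711910. Summed neutrophil markers ran from 27103 to 48393 and from 17637 to 38411, mostly through S100a8 (means of 30191 and 17455). Csf3r ran the other way (3239 and 4390), and Ly6g was 0 in every library but S3 (1.19). Summed hepatocyte markers ran from 862 to 2174 and from 1783 to 14611, highest in S10. Summed erythroid and platelet markers ran from 5908 to 35204 and from 2654 to 6901, mostly haemoglobin genes, and Hba-a1 read 1858 to 11962 in fl/fl and 902 to 1630 in Mye-/- without overlap. Summed dendritic cell markers ran from 239 to 560 and from 407 to 1340, with Flt3 at means of 253 and 610 and Cd209a at 42.9 and 120. Ccr7 (means of 93.9 and 60.2) and Zbtb46 (37.0 and 35.2) were lower in Mye-/-. Clec9a had means of 0 and 13.5, and Xcr1 and Siglech were listed at 0 in all libraries. T and NK cell markers summed to 168 to 1697 and 222 to 1606, B and plasma cell markers to 137 to 720 and 166 to 706, and liver endothelial markers to 255 to 915 and 373 to 629. Stellate cell markers summed to 14.3 to 208 and 0 to 125, with Lrat and Reln listed at 0 in all libraries. No gene of these 11 lists was called by limma. The part of these markers in the values of Fosb, Fosl2 and Atf3 was not tested.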

How the data were processed

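Liver macrophages from the non-parenchymal fraction were sequenced in 9 libraries, and the deposited table holds 1 value per feature and library. The authors' signal values are normalized reads: counts divided by a size factor per library, uncorrected for length. The submitters' processing notes name DESeq, STAR 2.4.0, SAMtools, Picard, FastQC and mm10, and per the file headers the features are FAST DB gene models with mm10 coordinates. The size factors were read from the values. Counting tool, strand setting and duplicate handling: not given in the sources used here. Overlapping or antisense genes therefore cannot be separated. Of nonzero values, 100% were whole multiples of 1 read within a tolerance of 0.01 reads, which gave whole reads for edgeR 4.0.16 and DESeq2 1.42.0 as alternatives.

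Genotypes were compared two-sided in limma 3.58.1 under R 4.3.3, using its intensity trend, on log2 of the value plus a pseudocount of 1. The 15288 features that reached 10 in 4 or more libraries were kept, with Benjamini-Hochberg adjustment at 0.05. It was tested on simulated data. The members and lists were chosen with earlier results of these data known. Genes named are the members, up to 4 per list with the smallest p, the 10 most alike, Mgll and markers. Jdp2, Egr1 and Ier2 were named after their values were seen.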

Additional observations from a re-analysis of the deposited data

How the results depend on the processing

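Over 20 alternatives, Fos, Fosb, Fosl2, Junb and Atf3 were higher in Mye-/- in each, with ranges of 0.18 to 0.33, 0.49 to 0.80, 0.52 to 0.87, 0.05 to 0.27 and 0.34 to 0.56. With 1 library left out, Jun ran from -0.0296 to 0.65, Jund from -0.0729 to 0.24, Maff from -0.17 to 0.31 and Batf from -0.25 to 0.0908, and without S1 and S3 together (chosen after seeing the data) Batf was 0.0689 and Jund 0.39, outside its range with 1 library left out. limma called 0 members in each of its alternatives, and DESeq2 called 2 members, 1 target and 2 other immediate-early genes. That last list had 0 calls in the main analysis, 2 with a pseudocount of 8, 1 with no filter, 2 with TMM scaling, 2 without S1 and S3 together and 0 to 2 with 1 library left out.

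Features called higher numbered 3 in the main analysis, 12 with a pseudocount of 8, 6 with TMM scaling, 20 without the intensity trend, 0 with age as a covariate, 0 in 11-week-old mice only, 91 with DESeq2, 7 without S1 and S3 together, and 0 to 12 with 1 library left out (0 without S8 or S10, 1 without S11, 7 without S1 and 12 without S5). Features called lower numbered 0, against 5, 1, 55 and 2 with a pseudocount of 8, without the trend, with DESeq2 and without S1 and S3, and 0 to 8 with 1 library left out. The cause was not tested. No paired analysis was possible because the genotypes share no library numbers. Depth limits Batf most, at 229 reads in its lowest library, and reads carry no molecular identifiers.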

Other observations

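Some genes followed 1 member closely among libraries of the same genotype, and were chosen after their values were seen from the 3 highest for each member among 6758 genes over 9 libraries. Raly, an RNA-binding protein, followed Jun with r = 0.99 and rho = 1, and the centred values of Jun were lowest in S1 and highest in S3. Atrx, a chromatin remodeller, followed Fosl2 most closely (r = 0.98), and Etv3, an ETS-family repressor of macrophages, and Cdkn1a, the cell cycle inhibitor p21, came next (r = 0.97 and r = 0.96). Rnf19a followed Atf3 with r = 0.97. These values carry no p.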
